A study of Mus musculus with 11 samples.

Results

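The proteasome is the enzyme that degrades proteins tagged with ubiquitin, and its genes were followed here in mouse hearts after an obesogenic diet with and without a senolytic drug cocktail. Members were protein-coding genes whose symbol begins with Psm followed by a letter from a to g and a number. The rule took 50 of the 55487 identifiers of the deposited table. It used names and not measured values. Of the 50, 49 passed the filter on low counts and were tested. Psmb11, the subunit of the thymus proteasome, lay between 0 and 0.0449 CPM, the library-scaled count used for levels throughout, and was not tested. Psmc3ip matches the pattern by name only. It is a meiotic recombination factor and no subunit. Psme2b is a near-copy of Psme2, so counts of the pair are uncertain.

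Hearts of female C57BL/6NTac mice, a wild-type inbred strain put on its diet at 8 weeks of age and kept on it for 24 weeks, were sequenced. The treated group, 3 libraries, ate the obesogenic diet (solid food at 60.3% of energy from fat, plus sweetened condensed milk) and from week 16 was gavaged with dasatinib, a tyrosine kinase inhibitor, at 5 mg/kg and quercetin, a plant flavonoid, at 50 mg/kg in 10% PEG400, a pair used to remove senescent cells. The obese group, 4 libraries, ate the same diet and was gavaged with 10% PEG400 alone. The control group, 4 libraries, ate a diet with 10.4% of its energy from fat, and no source used here says if it was gavaged, so diet and gavage cannot be told apart. Nothing in the labels ties libraries to separate animals, so a p-value covers the spread among libraries only, and that spread may be technical. In these bulk samples, fewer cells of a type and less RNA per cell cannot be told apart.

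The 26S proteasome consists of a barrel, the 20S core, and a cap, the 19S particle. The core stacks rings of alpha subunits, which form the gate, on rings of beta subunits, of which Psmb5, Psmb6 and Psmb7 encode those that cut. The cap holds a ring of ATPases (Psmc genes) that unfold the substrate and thread it into the core, and non-ATPase subunits (most Psmd genes), many of them scaffold, with some that bind ubiquitin and one that removes it. Interferon induces the alternative catalytic subunits Psmb8, Psmb9 and Psmb10 of the immunoproteasome. In the heart, whose contractile cells live for most of an animal's life, the proteasome takes part in the turnover of sarcomere proteins. In mammals, the transcription factor encoded by Nfe2l1 is known to raise proteasome genes together when the enzyme is inhibited.

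Promoter sequences were available in RefSeq (GRCm38.p6) for 42 of the 50 members, in 45 windows of 300 bases, 250 before the transcription start and 50 after it. The core of the antioxidant response element, which NFE2L1 and NFE2L2 can bind, was searched as TGACNNNGC on both strands. It stood in 6 of the 45 windows (13.3%), against 12.4% of 32851 promoter windows of the same length. CCAAT, the box of the factor NF-Y, stood in 15 (33.3%), against 37.4% of all windows. The interferon response core, a pair of GAAA with 2 free bases between, stood in 5 (11.1%), against 3.44%. These were the windows of Psmb3, Psmd4, Psmd9, Psme1 and Psmg4, while those of Psmb8, Psmb9, Psmb10 and Psme2 held none. The 4 promoters below were chosen as examples and do not stand for the members as a whole. They are Psmb5 and Psmb6, which encode catalytic subunits, Psme4, the member with the highest level, and Psmc1, the member that fell furthest. Each line gives 260 bases, 5′ to 3′ on the gene's strand, 250 before the start and 10 after it, with capitals marking TGACNNNGC in the first 3 and CCAAT in Psmc1.
Psmb5: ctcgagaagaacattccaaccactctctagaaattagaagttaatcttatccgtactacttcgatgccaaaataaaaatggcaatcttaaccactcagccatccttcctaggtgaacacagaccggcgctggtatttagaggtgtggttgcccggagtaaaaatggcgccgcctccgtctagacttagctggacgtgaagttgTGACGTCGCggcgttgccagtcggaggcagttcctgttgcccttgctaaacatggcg
Psmb6: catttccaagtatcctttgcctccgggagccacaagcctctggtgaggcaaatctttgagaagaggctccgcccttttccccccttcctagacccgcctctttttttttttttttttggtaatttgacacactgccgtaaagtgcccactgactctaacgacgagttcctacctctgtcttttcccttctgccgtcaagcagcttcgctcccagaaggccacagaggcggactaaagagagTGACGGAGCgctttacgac
Psme4: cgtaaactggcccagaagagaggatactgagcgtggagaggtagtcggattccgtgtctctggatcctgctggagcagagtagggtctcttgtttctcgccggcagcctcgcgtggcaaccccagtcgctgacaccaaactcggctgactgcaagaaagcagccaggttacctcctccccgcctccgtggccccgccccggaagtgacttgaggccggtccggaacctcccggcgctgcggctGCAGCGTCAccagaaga
Psmc1: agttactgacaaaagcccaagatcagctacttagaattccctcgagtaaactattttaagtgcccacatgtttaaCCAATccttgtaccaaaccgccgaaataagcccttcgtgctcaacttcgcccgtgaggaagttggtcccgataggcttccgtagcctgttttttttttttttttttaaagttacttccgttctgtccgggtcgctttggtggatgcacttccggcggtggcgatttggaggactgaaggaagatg
In GRCm38 these windows are chr14:54617986-54618245 on the minus strand for Psmb5, and chr11:70525107-70525366, chr11:30771525-30771784 and chr12:100109952-100110211 on the plus strand for Psmb6, Psme4 and Psmc1. The match began 47 bases before the start in Psmb5 and 9 in Psmb6. In Psme4 it began 7 bases before the start and lay on the opposite strand. The other windows with TGACNNNGC were those of Psmd9, Psmc6 and Psmd12. The 4 standard core and cap subunits with TGACNNNGC had a median log2 fold change of -0.675 in obese minus control hearts. It was -0.696 in the 21 without it. The CCAAT of Psmc1 began 175 bases before the start, and the alpha ring genes held CCAAT in 5 of 8 windows (62.5%). It stood in 2 of 6 windows of ATPase genes, 2 of 9 of non-ATPase cap genes and 1 of 4 of standard beta genes. The standard subunits together held it in 10 of 27 windows (37.0%). A match is a description of the letters, not a site of binding. Each printed window held 1 match of the 3 motifs.

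Library totals ran from 52.7 to 103.3 M counts, and the 4 control libraries were the deepest. The cardiomyocyte markers (Myh6, Tnnt2, Tnni3, Actc1, Ryr2 and Mb) summed to 28430 to 32600 CPM in treated, 22040 to 33190 in obese and 27060 to 37100 in control libraries, high in every library of this heart series. Of these 6, 2 were lower in obese than in control hearts, with a median log2 fold change of -0.38. Erythroid markers summed to 719.8 to 882.3 CPM in treated, 884.4 to 1834 in obese and 1088 to 1537 in control libraries. Of these 5, 2 were lower in treated than in control hearts. Markers of atrial muscle summed to 1979 to 5388 CPM in obese replicate 3 and treated replicates 2 and 3, against 15.5 to 185.4 CPM in the other 8 libraries. Endothelial markers (Pecam1, Cdh5, Kdr and Tie1) summed to 512 to 543.6 CPM in treated, 518.8 to 615.1 in obese and 699.3 to 823.7 CPM in control libraries, without overlap of control with the others, and 2 of 4 were lower in obese hearts. Adipocyte markers (Adipoq, Plin1, Cidec and Lep) summed to 0.695 to 8.69 CPM in treated, 0.308 to 7.10 in obese and 0.0991 to 0.258 CPM in control libraries, and 4 of 4 were higher in obese hearts, with a median log2 fold change of 4.56. The mitochondrial chromosome took 20.2% ± 2.28 of counts in treated, 23.0% ± 1.28 in obese and 29.9% ± 1.92 in control libraries (SD, n = 3, 4 and 4).

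Proteasome genes were lower in obese than in control-diet hearts nearly throughout the complex. Of 49 members tested, 41 were lower (83.7%) and 0 higher, against 15.7% lower and 14.4% higher among all 23779 genes (edgeR quasi-likelihood test, adjusted p under 0.05). The median log2 fold change of the members was -0.59, against 0.11 over all genes. In 36 members no obese library reached any control library, as in 14.7% of all genes, and in 0 members was the order the other way round, as in 13.8%. Abundant protein-coding genes tended to be lower as well. Among 7831 such genes with a mean of at least 10 CPM, 35.8% were lower and the median was -0.19, while 36 of the 38 members of that level were lower (94.7%), with a median of -0.62. In the other direction were 9.96% of these genes and 0 members.

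**Figure D1:**
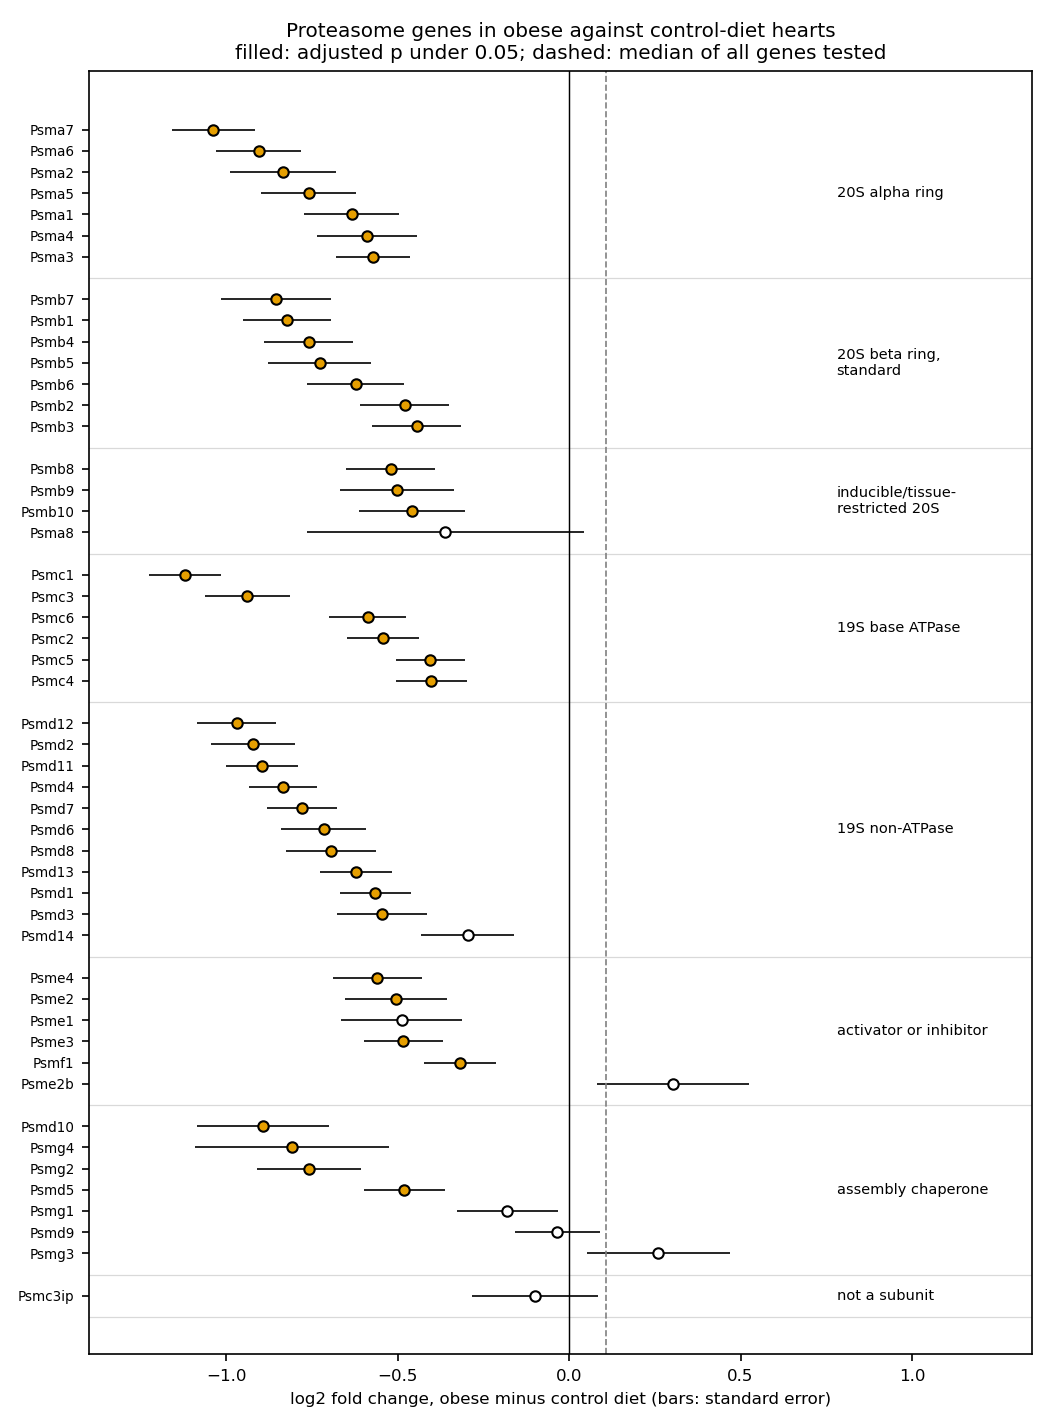
Log2 fold change of obese minus control-diet hearts for the 49 tested members, by role. Points are estimates, bars standard errors, filled points have an adjusted p under 0.05, and the dashed line is the median of all genes. Values run from -1.12 in Psmc1 to 0.30 in Psme2b, and no filled point lies above 0.

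The 31 standard subunits of core and cap moved together. Their summed level was 966.4, 1061 and 1170 CPM in treated libraries, 868.9, 877.5, 968.8 and 1108 CPM in obese libraries, and 1380, 1532, 1691 and 1757 CPM in control libraries. No obese or treated library reached the lowest control library. The mean was 1066 ± 101.9 CPM in treated (SD, n = 3), 955.8 ± 111.1 in obese (SD, n = 4) and 1590 ± 168.9 in control hearts (SD, n = 4). All 31 subunits lay below their own control mean in each of the 7 obese and treated libraries, as they did in control replicate 2, while 28 did in control replicate 3, 1 in replicate 1 and 0 in replicate 4. The median log2 ratio to the control mean was -0.65 to -0.36 in treated, -0.84 to -0.47 in obese and -0.23 to 0.16 in control libraries. Of the 31, 30 were lower in obese hearts (median log2 fold change -0.72). The exception was Psmd14, which encodes the deubiquitinase of the cap, at 10.7 ± 1.40 CPM in obese and 13.1 ± 1.52 CPM in control hearts (SD, n = 4 each; log2 fold change -0.30, adjusted p = 0.115).

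All 7 alpha ring genes were lower in obese hearts, with log2 fold changes from -1.04 to -0.57. Psma7 had 29.8, 33.0 and 26.2 CPM in treated libraries, 25.3, 23.0, 21.4 and 28.4 CPM in obese libraries and 53.8, 43.5, 47.4 and 56.8 CPM in control libraries. Every obese library lay well below every control library. Psma7 was 2.05-fold lower in obese than in control hearts (log2 fold change -1.04, SE 0.12, adjusted p = 0.000216). Psma6 had 24.6, 27.9 and 22.4 CPM in treated, 21.6, 19.2, 21.7 and 25.9 CPM in obese and 44.3, 34.1, 41.2 and 46.1 CPM in control libraries, and again the obese and control groups were apart. Obese hearts were 1.87-fold lower than control hearts (log2 fold change -0.91, SE 0.12, adjusted p = 0.000413). The other alpha genes, Psma1 to Psma5, had log2 fold changes from -0.83 to -0.57.

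All 7 standard beta ring genes were lower, with a median of -0.73. For Psmb5, which encodes the chymotrypsin-like subunit, treated libraries had 15.9, 18.1 and 12.9 CPM, obese libraries 13.3, 10.7, 12.1 and 15.5 CPM and control libraries 22.5, 17.4, 20.3 and 25.4 CPM. The obese group lay below the control group without overlap, and the treated group overlapped both. In obese hearts Psmb5 was lower 1.66-fold (log2 fold change -0.73, SE 0.15, adjusted p = 0.0038). For Psmb6, which encodes the caspase-like subunit, the values were 27.8, 30.5 and 24.8 CPM in treated, 24.2, 20.6, 20.8 and 27.6 CPM in obese and 36.3, 27.8, 35.7 and 43.9 CPM in control libraries. Here the highest obese library, replicate 4, lay just under the lowest control library, replicate 2. Psmb6 was 1.54-fold lower in obese than in control hearts (log2 fold change -0.62, SE 0.14, adjusted p = 0.00617). Psmb7, which encodes the trypsin-like subunit, had 49.4, 51.1 and 40.6 CPM in treated, 47.3, 38.0, 36.7 and 54.6 CPM in obese and 87.7, 60.3, 75.8 and 95.4 CPM in control libraries. Obese hearts were 1.81-fold lower than control hearts (log2 fold change -0.85, SE 0.16, adjusted p = 0.00225). Control replicate 2 was the lowest control library in each of these 3 genes. Psmb7 overlaps Nek6 on the opposite strand, and no source used here says if counting used strand.

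The structural beta subunits Psmb1 and Psmb4 had the smallest p of the ring. Psmb1 had 23.0, 28.1 and 21.5 CPM in treated, 19.7, 19.6, 19.8 and 22.4 CPM in obese and 38.0, 27.9, 36.6 and 41.7 CPM in control libraries. In obese hearts Psmb1 was lower 1.77-fold (log2 fold change -0.82, SE 0.13, adjusted p = 0.000807). Psmb4 had 39.6, 44.8 and 35.6 CPM in treated, 33.1, 27.6, 30.6 and 38.3 CPM in obese and 60.8, 44.6, 54.1 and 60.0 CPM in control libraries. Psmb4 was 1.69-fold lower in obese than in control hearts (log2 fold change -0.76, SE 0.13, adjusted p = 0.00133). In both genes obese and control libraries did not overlap. In Psmb2 and Psmb3 they did, with log2 fold changes of -0.48 and -0.44 (adjusted p = 0.0148 and 0.0216).

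All 6 ATPases of the cap were lower in obese hearts, though without scaling factors the log2 fold changes of Psmc4 and Psmc5 were 0.0228 and 0.0207. Psmc1, which encodes the ATPase Rpt2, had the largest fall of any member. Its level was 41.9, 48.7 and 39.9 CPM in treated libraries, 34.5, 33.6, 37.3 and 39.9 CPM in obese libraries and 88.5, 70.8, 76.6 and 80.1 CPM in control libraries. The 3 groups did not overlap, with the treated libraries just above the obese ones and all control libraries far above both. Obese hearts were 2.17-fold lower than control hearts (log2 fold change -1.12, SE 0.10, adjusted p = 4.69e-05). Psmc3 had 39.2, 43.5 and 34.8 CPM in treated, 31.2, 27.9, 28.3 and 34.2 CPM in obese and 62.0, 47.1, 56.4 and 67.7 CPM in control libraries. Here too the groups were apart, with the treated libraries in the middle. In obese hearts Psmc3 was lower 1.92-fold (log2 fold change -0.94, SE 0.12, adjusted p = 0.000359). Psmc3 overlaps Slc39a13 on the opposite strand. The other ATPase genes fell less, with log2 fold changes of -0.59 in Psmc6, -0.54 in Psmc2 and -0.40 in both Psmc4 and Psmc5 (adjusted p from 0.00239 to 0.0119).

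**Figure D2:**
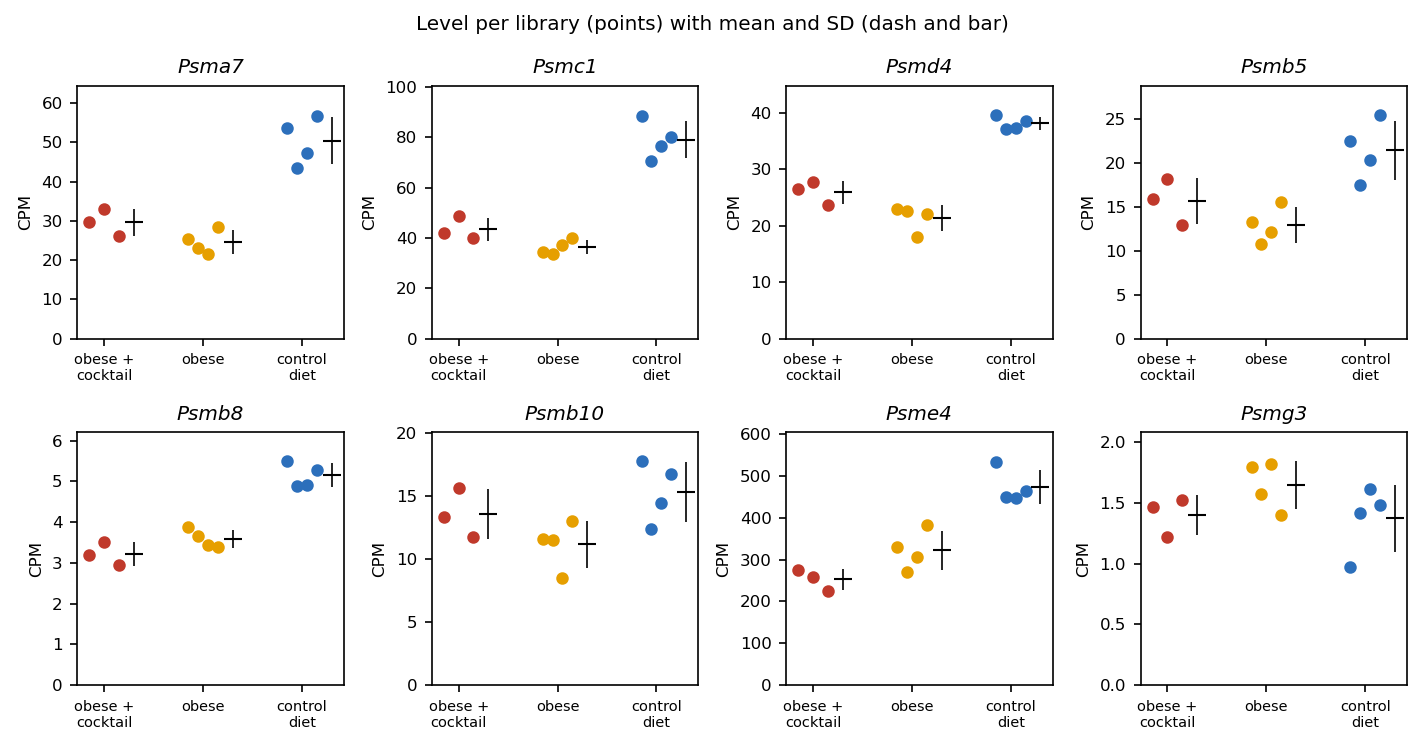
Level in CPM of 8 members in each library (points), with the mean and SD of each group (dash and bar), in obese hearts given the cocktail, obese hearts and control-diet hearts. In Psmc1 obese libraries lie between 33.6 and 39.9 CPM and control libraries between 70.8 and 88.5 CPM, while in Psmg3 the groups overlap.

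Of 11 non-ATPase subunits of the cap, 10 were lower, with Psmd14 the exception. Psmd11, which encodes the scaffold subunit Rpn6, had 55.6, 62.3 and 50.2 CPM in treated, 52.5, 50.5, 47.8 and 61.2 CPM in obese and 104, 93.7, 95.6 and 101 CPM in control libraries. Psmd11 was 1.86-fold lower in obese than in control hearts (log2 fold change -0.89, SE 0.10, adjusted p = 0.00022). Psmd4, which encodes the ubiquitin receptor Rpn10, had 26.4, 27.6 and 23.6 CPM in treated, 22.9, 22.5, 18.0 and 22.1 CPM in obese and 39.6, 37.0, 37.3 and 38.6 CPM in control libraries. Obese hearts were 1.78-fold lower than control hearts (log2 fold change -0.84, SE 0.10, adjusted p = 0.000227). In both genes the obese and control groups were apart, and in Psmd4 the treated libraries lay between them. Psmd12 and Psmd2, which encode Rpn5 and the large base subunit Rpn1, were 1.96-fold and 1.90-fold lower (adjusted p = 0.000234 and 0.000375). The remaining non-ATPase genes, Psmd1, Psmd3, Psmd6, Psmd7, Psmd8 and Psmd13, had log2 fold changes from -0.78 to -0.55. Psmd13 overlaps Sirt3 on the opposite strand. Of the cap's subunits named outside the pattern, Adrm1 (Rpn13) and Sem1 were both lower, by log2 fold changes of -0.45 (adjusted p = 0.0195 and 0.0217).

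The inducible catalytic subunits were lower too, with Psmb8 and Psmb9 at low levels. Psmb10 averaged 7.95 CPM per kilobase of exon in treated, 6.54 in obese and 8.99 in control hearts. Per kilobase of exon, Psmb8 averaged 0.950 CPM in treated, 1.06 in obese and 1.52 in control hearts, whereas Psmb5, the subunit it replaces, averaged 17.4 CPM per kilobase in treated, 14.4 in obese and 23.8 in control hearts. Psmb8 had 3.19, 3.51 and 2.94 CPM in treated, 3.87, 3.66, 3.44 and 3.38 CPM in obese and 5.50, 4.89, 4.91 and 5.27 CPM in control libraries. In obese hearts Psmb8 was lower 1.43-fold (log2 fold change -0.52, SE 0.13, adjusted p = 0.0101). Psmb9 had 3.40, 3.37 and 3.55 CPM in treated, 4.50, 4.84, 2.96 and 3.63 CPM in obese and 5.38, 6.31, 4.97 and 5.91 CPM in control libraries. Psmb9 was 1.42-fold lower in obese than in control hearts (log2 fold change -0.50, SE 0.17, adjusted p = 0.0354). Psmb10 had 13.3, 15.6 and 11.7 CPM in treated, 11.6, 11.5, 8.52 and 13.0 CPM in obese and 17.7, 12.4, 14.5 and 16.7 CPM in control libraries, with overlap of all groups. Obese hearts were 1.37-fold lower than control hearts (log2 fold change -0.46, SE 0.15, adjusted p = 0.0381). The calls of Psmb9 and Psmb10 were lost when any of several libraries was left out, with adjusted p from 0.0568 to 0.0814 for Psmb9 and from 0.0549 to 0.107 for Psmb10. For Psmb9 these were control replicates 1, 2 and 4 and obese replicates 3 and 4, and for Psmb10 replicates 1, 3 and 4 of the control group and 1, 2 and 3 of the obese group. Psmb9 also overlaps Tap1 on the opposite strand, which held 8640 counts in all against 3434 for Psmb9. Psma8, the alpha subunit of male germ cells, averaged 0.268 CPM in treated, 0.302 in obese and 0.385 CPM in control hearts and did not pass (adjusted p = 0.521).

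The balance of inducible to standard subunits was taken as a ratio of levels per kilobase in each library. For Psmb10 over Psmb7 it was 0.542, 0.613 and 0.578 in treated, 0.491, 0.607, 0.466 and 0.478 in obese, and 0.406, 0.412, 0.383 and 0.352 in control libraries. Every treated and obese library was above every control library, with no p given since the pair was read after the values were known. For Psmb8 over Psmb5, the ratio was 0.0515 to 0.0605 in treated, 0.0580 to 0.0908 in obese and 0.0553 to 0.0746 in control libraries. For Psmb9 over Psmb6, it was 0.0565 to 0.0730 in treated, 0.0671 to 0.120 in obese and 0.0688 to 0.116 in control libraries. Obese and control libraries overlapped in both of these ratios. Leukocyte markers, 10 genes whose cells are rich in the inducible subunits, summed to 88.1 to 150.3 CPM in treated, 91.0 to 165.2 in obese and 115.3 to 179.1 CPM in control libraries. None of the 10 passed in obese against control hearts, and their part in the inducible subunits was not tested.

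Activators open the gate of the core in place of the cap. Psme4, which encodes the large activator PA200, had the highest level per kilobase of all members in obese and control hearts, with means of 38.4 and 56.6 CPM per kilobase. In treated hearts Psmb2, at 32.1 CPM per kilobase, was above Psme4, at 30.1. Psme4 had 274, 259 and 225 CPM in treated, 329.5, 270.5, 306 and 383 CPM in obese and 534, 449.9, 449 and 465 CPM in control libraries. No obese library reached a control library, and the treated libraries were lower still apart from an overlap with obese replicate 2. In obese hearts Psme4 was lower 1.47-fold (log2 fold change -0.56, SE 0.13, adjusted p = 0.0069). Psme1 and Psme2 encode the interferon-induced activator PA28 alpha and beta. Psme1 had 33.1, 30.1 and 21.4 CPM in treated, 34.4, 26.7, 24.2 and 35.7 CPM in obese and 49.0, 31.4, 42.3 and 47.2 CPM in control libraries, and its difference between obese and control hearts just missed the threshold (log2 fold change -0.49, SE 0.18, adjusted p = 0.0505). Psme1 overlaps Emc9 on the opposite strand. The Psme1 difference passed under several alternatives, with DESeq2 or RLE scaling among them. Without scaling factors its log2 fold change was -0.0606 (adjusted p = 0.71). With the share of counts in sense-intronic and TEC genes, described below, as a covariate, it turned to 0.249 (adjusted p = 0.729).

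Psme2 had 10.3, 13.2 and 10.1 CPM in treated, 12.8, 11.3, 9.14 and 11.1 CPM in obese and 16.6, 12.3, 15.6 and 18.6 CPM in control libraries. Psme2 was 1.42-fold lower in obese than in control hearts (log2 fold change -0.50, SE 0.15, adjusted p = 0.0224), and the call was lost without control replicate 1 or 4 or obese replicate 3 (adjusted p from 0.0567 to 0.0706). The near-copy Psme2b had 1.63, 1.75 and 1.39 CPM in treated, 2.89, 2.29, 1.55 and 1.60 CPM in obese and 1.73, 1.76, 1.79 and 1.47 CPM in control libraries, the most positive difference of any member (log2 fold change 0.30, SE 0.22, adjusted p = 0.316). Psme2b overlaps 9930111J21Rik1 and Gm12185 on the same strand, which held 14084 and 887 counts in all against 1383 for Psme2b. Psme3, which encodes the nuclear activator PA28 gamma, had 30.9, 34.5 and 31.8 CPM in treated, 28.9, 30.6, 28.0 and 36.0 CPM in obese and 46.5, 34.8, 46.4 and 44.9 CPM in control libraries. Control replicate 2 stood well below the other control libraries and under obese replicate 4. Obese hearts were 1.40-fold lower than control hearts (log2 fold change -0.48, SE 0.12, adjusted p = 0.00782). Psmf1, which encodes the inhibitor PI31, was lower by a log2 fold change of -0.32 (adjusted p = 0.0366), which was 0.11 without scaling factors.

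Chaperones that assemble the enzyme were the most mixed role. Of 7, 4 were lower and 3 did not pass. Psmd10, a chaperone of the cap also known as gankyrin, had 2.26, 3.47 and 2.95 CPM in treated, 2.06, 1.76, 2.14 and 2.46 CPM in obese and 4.73, 3.37, 3.26 and 4.29 CPM in control libraries. In obese hearts Psmd10 was lower 1.86-fold (log2 fold change -0.89, SE 0.19, adjusted p = 0.00474). Psmg2, which helps to build the alpha ring, had 8.58, 9.69 and 7.53 CPM in treated, 7.71, 5.27, 7.32 and 8.67 CPM in obese and 12.6, 11.9, 11.02 and 13.5 CPM in control libraries. Psmg2 was 1.69-fold lower in obese than in control hearts (log2 fold change -0.76, SE 0.15, adjusted p = 0.00308). In both, the obese and control groups were apart. Psmd5 and Psmg4 were lower as well (log2 fold changes -0.48 and -0.81, adjusted p = 0.0094 and 0.0457). Psmg3, also a chaperone of the core, had 1.46, 1.22 and 1.52 CPM in treated, 1.80, 1.57, 1.82 and 1.40 CPM in obese and 0.977, 1.42, 1.61 and 1.48 CPM in control libraries, with wide overlap (log2 fold change 0.26, SE 0.21, adjusted p = 0.359). Psmd9 and Psmg1 had log2 fold changes of -0.03 and -0.18 (adjusted p = 0.856 and 0.37). Psmc3ip, which is no subunit, differed by -0.10 on the log2 scale (adjusted p = 0.707).

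The size of these differences depended on how libraries were scaled and on a measure of RNA composition. As a share of all counts, without scaling, the 50 members took 0.163% ± 0.00930 in treated, 0.158% ± 0.00747 in obese and 0.187% ± 0.00570 in control libraries (SD, n = 3, 4 and 4). The TMM factors averaged 1.115 in treated, 1.116 in obese and 0.833 in control libraries. With library totals alone, which raised the median of all genes by 0.42, 16 members were lower and 3 higher (Psmg3, Psmd9 and Psme2b). Of all genes, 960 were then lower and 9061 higher. Relative to the median of all genes, the members' median was -0.695 with TMM and -0.686 with library totals. The annotation's sense-intronic and TEC genes (TEC loci await experimental evidence) took 0.629%, 0.509% and 0.671% of counts in treated replicates 1 to 3, 0.746%, 0.706%, 0.811% and 0.663% in obese replicates 1 to 4, and 0.308%, 0.590%, 0.411% and 0.286% in control replicates 1 to 4. Within the control group the order of the summed level of the 31 standard subunits was the reverse of the order of this share, with replicate 4 highest in level and replicate 2 lowest. The order was reversed in the treated group too. In the obese group it was not, since replicate 2 had both a lower share and a lower level (877.5 CPM) than replicate 1 (968.8 CPM). With this share as a covariate, Psmc1 alone passed (log2 fold change -0.81, SE 0.15, adjusted p = 0.046), and the median of the 31 standard subunits was -0.23. Of all 23779 genes, 35 were then higher and 86 lower, with a median of 0.01. The share and the diet go together in these libraries, so their parts in the result cannot be told apart. The cardiomyocyte, endothelial and adipocyte marker sums, given above, also moved with the diet or the summed level, and their part was not tested.

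**Figure D3:**
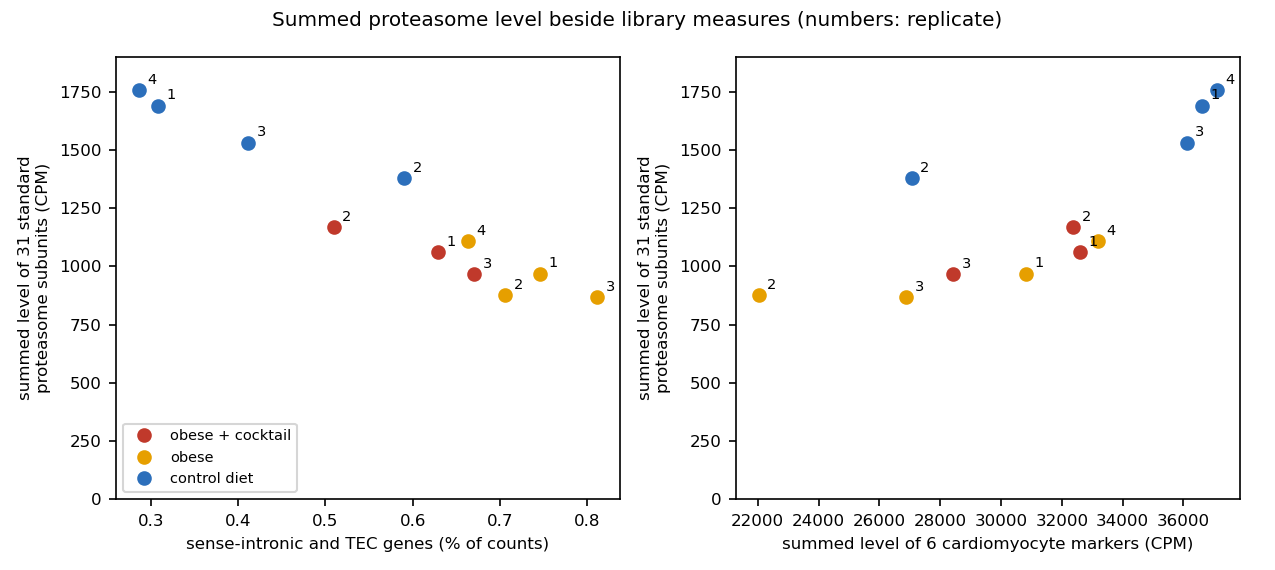
Summed level of the 31 standard subunits (CPM) in each library against the share of counts in sense-intronic and TEC genes (left, %) and against the summed level of 6 cardiomyocyte markers (right, CPM), with replicate numbers. Obese replicate 3 has 868.9 CPM at a share of 0.811%, and control replicate 4 has 1757 CPM at 0.286%.

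Genes that work with the proteasome were followed in 7 lists, and their calls below are for obese against control hearts. Without scaling factors, the calls of Pomp, Txnl1, Ubb, Uba1, Vcp, Nploc4, Ube2r2, Fbxo32, Trim63, H2-D1, H2-K1, Ngly1 and Nfe2l1 were lost. With the intronic and TEC share as a covariate, these calls and those of Rad23b, Rps27a, Ube2b, Ube2g2, Trim54, Nedd4 and Mafg were lost. Of all genes tested, 15.7% were lower and 14.4% higher in obese hearts. Among the abundant protein-coding genes these shares were 35.8% and 9.96%. Of 16 proteasome-bound or assembly factors outside the naming pattern, 12 were lower in obese hearts (75%) and 0 higher (median log2 fold change -0.48). Txnl1, a thioredoxin-like protein of the cap, averaged 27.8 ± 2.36 CPM in obese and 43.0 ± 4.10 CPM in control hearts (SD, n = 4 each; log2 fold change -0.63, adjusted p = 0.000733). Rad23b, a shuttle that brings ubiquitinated proteins to the cap, averaged 48.2 ± 5.22 CPM in obese and 85.9 ± 11.1 CPM in control hearts (log2 fold change -0.83, adjusted p = 0.00077). Pomp, the maturation factor of the core, averaged 24.4 ± 1.65 CPM in obese and 33.0 ± 4.81 CPM in control hearts (log2 fold change -0.44, adjusted p = 0.0104). Each of these 3 genes had obese libraries below all control libraries.

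Of 7 ubiquitin genes and activating enzymes, 4 were lower (57.1%) and 1 higher (14.3%), against 15.7% and 14.4% of all genes. Rps27a, which encodes ubiquitin fused to a ribosomal protein, was lower by a log2 fold change of -0.98 (adjusted p = 0.000445). Ubb, a polyubiquitin gene, averaged 218 ± 15.3 CPM in obese and 318 ± 13.0 CPM in control hearts (log2 fold change -0.55, adjusted p = 0.00267). Uba1, the main ubiquitin-activating enzyme, was lower (log2 fold change -0.58, adjusted p = 0.00375). Uba7, which activates the ubiquitin-like ISG15 and was chosen for mention after its value was seen, was the 1 higher gene (log2 fold change 0.67, adjusted p = 0.0137).

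Of 20 deubiquitinases and conjugating enzymes, 13 were lower (65%) and 0 higher, against 15.7% and 14.4% of all genes. Ube2b and Ube2r2 had log2 fold changes of -1.13 and -0.66 (adjusted p = 0.000465 and 0.00288). Of 17 genes of the p97 segregase and of degradation from the endoplasmic reticulum, 10 were lower (58.8%) and 0 higher. Vcp, which encodes p97 itself, averaged 262 ± 43.0 CPM in obese and 398 ± 39.6 CPM in control hearts (log2 fold change -0.60, adjusted p = 0.00605). Its cofactor gene Nploc4 and the conjugating enzyme gene Ube2g2 had log2 fold changes of -0.62 and -0.73 (adjusted p = 0.00083 and 0.00067). Of 10 ubiquitin ligases of heart muscle, 6 were lower (60%) and 1 higher (10%). The higher one was Trim55 (log2 fold change 0.42, adjusted p = 0.029), chosen for mention after its value was seen. Trim54 and Nedd4 had log2 fold changes of -1.001 and -0.73 (adjusted p = 0.000824 and 0.00109). The atrophy ligase genes Fbxo32, for atrogin-1, and Trim63, for MuRF1, had log2 fold changes of -0.62 and -0.44 (adjusted p = 0.00631 and 0.0245). The call of Trim63 was lost without control replicate 1 or 4 or obese replicate 2 or 3 (adjusted p from 0.0551 to 0.0675).

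Of 13 genes of MHC class I processing and its interferon control, 6 were lower (46.2%) and 0 higher, near the 35.8% lower among abundant protein-coding genes. The 6 lower genes included H2-D1 and H2-K1, which encode class I heavy chains from loci with near-identical family members (log2 fold changes -0.55 and -0.65, adjusted p = 0.00576 and 0.00652). Of 17 genes of the control of proteasome transcription, 4 were lower and 1 higher, the list closest to the background shares of 15.7% and 14.4%. Nfe2l1 averaged 326 ± 56.3 CPM in obese and 448 ± 63.0 CPM in control hearts (log2 fold change -0.46, SE 0.15, adjusted p = 0.0347). That call was lost when any of replicates 1, 3 and 4 of the control group or 1, 2 and 3 of the obese group was left out (adjusted p from 0.0598 to 0.0997). Ngly1, an enzyme needed to activate NFE2L1 in mammals, was lower (log2 fold change -0.54, adjusted p = 0.00182). Mafg, a small partner protein of NFE2L factors, was higher (log2 fold change 0.58, adjusted p = 0.00215). Nfe2l2 averaged 68.5 ± 6.79 CPM in obese and 65.5 ± 8.76 CPM in control hearts (log2 fold change 0.06, adjusted p = 0.701).

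**Figure D4:**
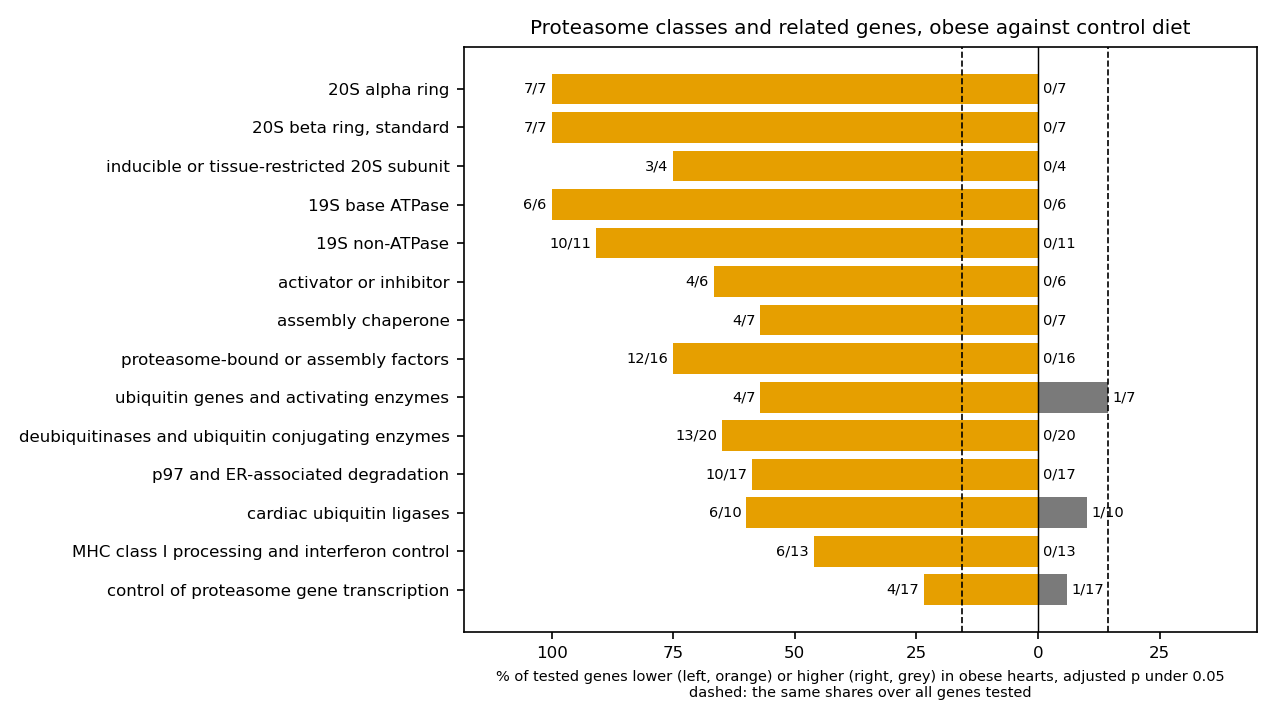
Share of tested genes in each proteasome role and related list that were lower (left, orange) or higher (right, grey) in obese than in control-diet hearts, in %, with counts. Dashed lines are the shares over all genes, 15.7% lower and 14.4% higher, and all alpha ring, standard beta ring and ATPase genes were lower.

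Treated against vehicle-gavaged obese hearts addresses the effect of the senolytic cocktail. No member passed in either direction, nor did any of the 23779 genes (0% by edgeR). By limma voom no gene passed either. By DESeq2 51 genes were higher and 80 lower, and 0 of them were members. The smallest adjusted p of a member was 0.417. Unadjusted p was under 0.05 in 7 of 49 members (14.3%), against 10.2% of all genes. The log2 fold change was above 0 in Psmc1, Psmc3, Psmd4, Psmd7, Psmb4 and Psmd10 of these 7, from 0.26 to 0.46, and was -0.35 in Psme4. Among the 31 standard subunits 29 had a log2 fold change above 0, with a median of 0.16, while the median of all genes was -0.01. The 7831 abundant protein-coding genes had a median of 0.06, against 0.15 in the 38 members of that level. Psmc1, Psmc3, Psmd4 and Psmd7 were the members in which all 3 treated libraries lay above all 4 obese libraries, as in 4.68% of all genes, and in 0 members did they lie below, as in 5.45%. Without treated replicate 2, which had the highest summed level of the treated libraries, 0 members had an unadjusted p under 0.05, and the median of the standard subunits was 0.09. Without obese replicate 3 that median was 0.10, with 3 members at an unadjusted p under 0.05. It was larger without obese replicate 4 (0.25, with 13 members), without treated replicate 3 (0.24, with 8) and with the replicate number as a block (0.23, with 16). With the intronic and TEC share as a covariate, the median was -0.02, with 2 members.

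**Figure D5:**
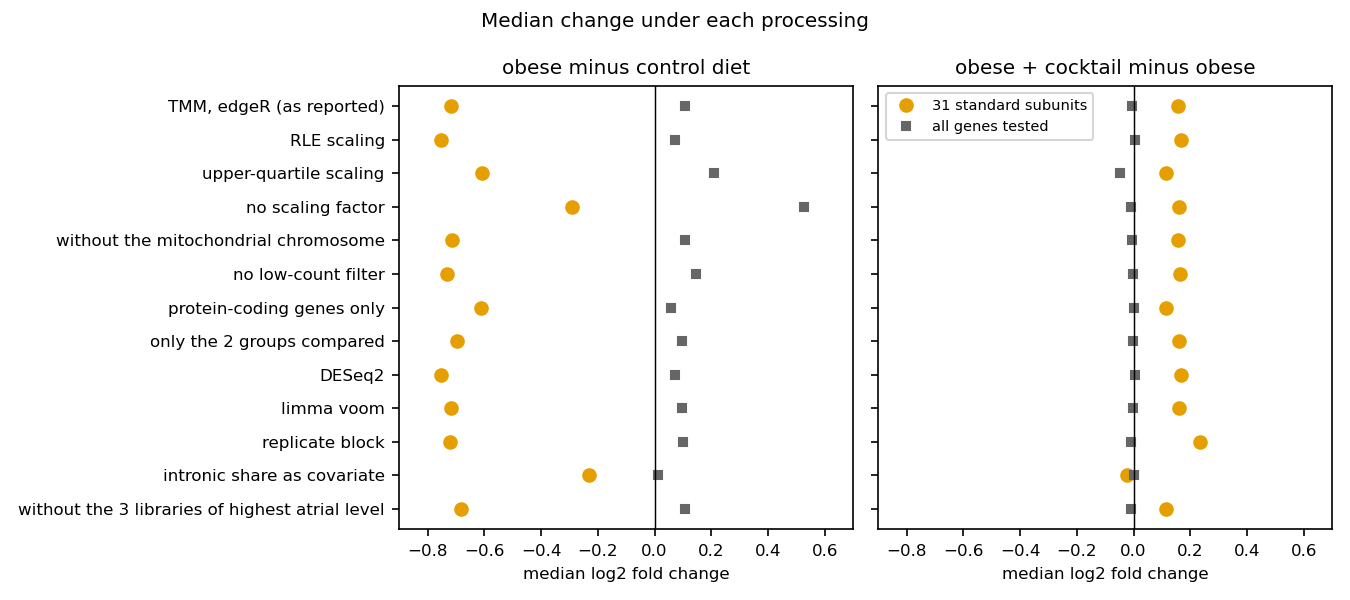
Median log2 fold change of the 31 standard subunits (circles) and of all genes tested (squares) under each processing, for obese minus control diet (left) and obese with cocktail minus obese (right). On the left the subunits lie between -0.75 and -0.23, below all genes in each row, and on the right between -0.02 and 0.23.

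The comparison of treated obese with control-diet hearts shares its treated libraries with the cocktail comparison and its control libraries with the diet comparison, so its values are given side by side only. Of 49 members, 29 were lower and 0 higher, against 8.39% lower and 7.43% higher of all genes, with a median of -0.50. In 28 members the treated libraries lay below all control libraries, as in 14.1% of all genes, and in 0 above them, as in 13.7%. Among abundant protein-coding genes, 19.4% were lower and 6.18% higher, against 27 and 0 of the 38 members of that level. The count rests on few libraries. It was 9 without treated replicate 3, 19 without treated replicate 1, 19 without control replicate 1 and 17 without control replicate 4, and 2 without the 3 libraries of high atrial level, which leaves 1 treated library that is assumed to vary like the others. All 7 alpha ring genes passed, 5 of 6 ATPases, 9 of 11 non-ATPase subunits and 3 of 7 standard beta ring genes, though without scaling factors the log2 fold changes of Psmc4 and Psmd13 were 0.0381 and 0.0195. Psme4 had the largest difference, at 253 ± 25.4 CPM in treated (SD, n = 3) and 474 ± 40.4 CPM in control hearts (SD, n = 4; log2 fold change -0.91, SE 0.14, adjusted p = 0.0023), against -0.56 in obese minus control hearts. Psmc1 had -0.86 (adjusted p = 0.000987), against -1.12 in obese minus control hearts. Psmb8 had -0.68 (adjusted p = 0.00912), and its call was lost without treated replicate 3 (adjusted p = 0.0602). That call was also lost without scaling factors (log2 fold change -0.26, adjusted p = 0.236). With the intronic and TEC share as a covariate it was lost too (-0.57, adjusted p = 0.106). Without the 3 libraries of high atrial level the log2 fold change of Psmb8 was -0.68. Psmb5 and Psmb6 missed the threshold, at -0.45 with adjusted p = 0.0759 for Psmb5 and -0.37 with adjusted p = 0.112 for Psmb6.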

How the data were processed

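RNA was sequenced from hearts in 3 treated, 4 obese and 4 control-diet libraries. The deposited table holds whole-number counts per Ensembl gene, analysed as read counts. No source used here says if they are counts of reads or estimates, or gives the annotation, the use of strand or versions. The submitters' processing notes name cutadapt, HISAT2, StringTie and the build GRCm38. A GENCODE annotation of GRCm38 held 55141 of 55487 identifiers. Genes were filtered with edgeR's filterByExpr (minimum count 10, minimum total 15), which left 23779, scaled by TMM and fitted in 1 model of 3 groups with the quasi-likelihood test (edgeR 4.0.16, limma 3.58.1, R 4.3.3). P-values were adjusted by Benjamini-Hochberg over all genes, with a threshold of 0.05, and the common biological coefficient of variation was 0.259. CPM values use TMM-scaled library sizes. Levels per kilobase divide by the union of a gene's exons. Replicates of 1 group differed by a chi-square per degree of freedom of at least 35.7, more than counting error alone gives, so none was 1 library deposited again. Repeat preparations of 1 heart cannot be told apart from separate animals.

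Members and lists were chosen with earlier results of these data known. By rule, values per library are given for Psmb5 to Psmb10, Psme1 to Psme4 and, in each role, the 2 smallest p and the most positive change. Of other genes, 9 regulators and the 2 smallest p in each list are named. Some genes that this rule covers are not reported here. Further members are named to account for each of the 50, and Adrm1 and Sem1 as subunits with other names. Alternatives were RLE, upper-quartile or no scaling (the last added after seeing the data), no mitochondrial chromosome, other filters, only the groups compared, DESeq2 1.42.0, limma voom, a replicate block, the intronic share as a covariate, and leaving out libraries. The 4 named non-coding copies (Psmb5-ps, Psmb6-ps, Psmb6-ps2 and Psmb7-ps2) held at most 41 counts in all and are not used.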

Additional observations from a re-analysis of the deposited data

Results flagged for a closer look

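For each of the 49 tested members, 1 obese and 1 control group of 4 libraries were checked, 98 groups in all. Of these, 4 held a library that stood apart from the other 3, and chance alone flags about 1 in 20 such groups. In obese libraries, Psmd4 was 17.98 CPM in replicate 3, against 22.09 to 22.88 CPM in the others, and Psmb1 was 22.41 CPM in replicate 4, against 19.63 to 19.75 CPM. In control libraries, Psme3 was 34.79 CPM in replicate 2, against 44.92 to 46.45 CPM in the others, and Psmg4 was 3.012 CPM in replicate 4, against 1.918 to 2.024 CPM. Obese replicate 3 had the lowest and obese replicate 4 the highest summed level of the 31 standard subunits in its group (868.9 and 1108 CPM), as control replicate 2 had the lowest and control replicate 4 the highest in theirs (1380 and 1757 CPM).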

How the results depend on the processing

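Counts of members lower in obese than in control hearts (41) became 16, with 3 higher, without scaling factors and 1 with the intronic and TEC share as a covariate, and ran from 35 to 42 when a library was left out. In treated against control hearts the count (29) became 8 without scaling factors, 4 with the covariate and 2 without the 3 libraries of high atrial level, and ran from 9 to 37 when a library was left out. All other alternatives run kept these counts within 1.5 times. In treated against obese hearts 0 members passed under every alternative run. Signs turned positive in 6 of the 41 members lower with the diet under the covariate, in Psmb10 (0.22), Psme2 (0.14), Psmb3 (0.14), Psma4 (0.0659), Psmb2 (0.0207) and Psmb6 (0.0044), as for Nfe2l1 (0.0674), and in 3 without scaling factors, in Psmf1 (0.11), Psmc4 (0.0228) and Psmc5 (0.0207). In treated against control hearts, 4 of the 29 turned without scaling factors, Psmd5 (0.0063), Psmc4 (0.0381), Psmd13 (0.0195) and Psme3 (0.0194), and 0 under the covariate. No other alternative run turned a member that had passed. The cause was not tested. Upper-quartile scaling split all diet calls into 4378 higher and 2926 lower and library totals alone into 9061 and 960, against 3429 and 3737. The covariate left 35 higher and 86 lower of all genes with the diet. In treated against control hearts it left 209 higher and 301 lower, against 1766 and 1994. The main fit did not pair samples by replicate number. Deviations of same-numbered libraries correlated from -0.23 to 0.40 over 10 pairs, 3 of them over 0.1. Those of other pairs correlated from -0.41 to 0.19 over 30 pairs, 5 of them over 0.1. The highest values were those of obese with treated libraries in replicates 1 (0.40) and 3 (0.34), so a pairing by number remains possible. With the replicate number as a block, 41 members were lower in obese than in control hearts, 0 passed in treated against obese hearts and 22 were lower in treated than in control hearts. Members near 1 CPM, such as Psmg3 and Psmg4, are limited by depth.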
